A study of Mus musculus with 4 samples.

Results

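The genes described here are Trp53, which encodes the transcription factor p53, and 9 genes of its pathway: Cdkn1a, which encodes the cyclin-dependent kinase inhibitor p21, Trp53inp1, Phlda3, Plk3, Plk2, Mdm2, Ccng1, Btg2 and Sesn1. They are 10 of the 31053 genes in the deposited tables, found by symbol, and each was measured in every library. They were selected on differences between stressed and control cells and on levels across cell types already seen in these libraries, so those differences and levels are given as a description. Single-cell RNA sequencing was done on brain vascular-associated cells of male wild-type C57BL/6 mice, captured with CD31 antibody-tagged beads. In the chronic social defeat (CSD) condition a mouse lived for 14 days in the cage of an aggressive CD-1 mouse behind a perforated partition, which was taken out for 5 minutes a day. In the home cage (HC) condition a mouse also shared a cage with a CD-1 mouse for 14 days, with the partition in place throughout. Each library pooled the cells of several mice of one condition, so the individual mouse cannot be followed. Each condition had 2 libraries, so n = 2 per condition. Capture and enzymatic digestion were common to both conditions.

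p53 is held at a low level by MDM2, the ubiquitin ligase that marks it for degradation, and is stabilized after DNA damage and other stresses. It then switches on genes that stop the cell cycle, repair damage or trigger cell death, and Mdm2 is itself one of them, which closes a feedback loop. Several of these genes also respond to other signals: Btg2, Plk2 and Plk3 are known as early response genes that are induced by growth factors, calcium or cyclic AMP, and Cdkn1a is induced by glucocorticoids and growth factors as well. p53 protein is regulated mainly after translation, so that the mRNA of Trp53 does not track its activity.

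Barcodes with at least 500 UMIs (unique molecular identifiers, each marking 1 captured mRNA molecule), at least 250 genes and at most 25% mitochondrial UMIs were kept as cells, which gave 14415 cells. Of these, 12073 were placed in a class by marker genes, and 6 classes held at least 20 cells in every library: 4705 endothelial cells (EC), 4479 microglia, 1185 choroid plexus cells, 453 pericytes, 366 astrocytes and 343 smooth muscle cells. Among the cell type marker lists, that of each class had the highest summed level in its own cells; in EC the 12 endothelial markers summed to between 21439 and 26415 counts per 1000000 UMIs (CPM) per library against 89.4 to 200.5 for the microglial list. The libraries held 27297599 to 30361474 UMIs, of which 51.8% to 56.8% were in cells in 3 libraries and 32.6% in CSD library 2, which stood apart. Between 6 and 15 cell barcodes of a library were also kept in another library. A level is the CPM of a gene in the summed UMIs of a class in a library. Because each molecule is counted once at its 3' end, a level does not grow with transcript length. Fewer cells that express a gene and fewer molecules per cell cannot be told apart in these sums.

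The promoters of 3 members are shown because they carry a sequence motif of a factor named above. RefSeq gives a start site for 9 of the 10 members (GRCm38.p6, 11 windows from 250 bases before to 50 after a start site); Trp53inp1 has none in the table used. Each window was searched on both strands for the p53 response element, a pair of 10-base sites (PuPuPuC(A/T)(A/T)GPyPyPy) up to 13 bases apart, for the cyclic AMP response element TGACGTCA, for the AP-1 site TGANTCA and for the serum response element. The 250 bases before the start site follow, 5' to 3', with the motif in capitals.

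Cdkn1a, upstream start site, chr17:29090729-29090978, plus strand, p53 response element of 32 bases: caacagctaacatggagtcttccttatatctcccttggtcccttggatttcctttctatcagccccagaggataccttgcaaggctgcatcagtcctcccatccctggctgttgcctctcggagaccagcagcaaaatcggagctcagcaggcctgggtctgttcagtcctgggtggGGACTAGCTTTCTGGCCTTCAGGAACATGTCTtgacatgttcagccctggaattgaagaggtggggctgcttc

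Btg2, chr1:134079156-134079405, minus strand, cyclic AMP response element: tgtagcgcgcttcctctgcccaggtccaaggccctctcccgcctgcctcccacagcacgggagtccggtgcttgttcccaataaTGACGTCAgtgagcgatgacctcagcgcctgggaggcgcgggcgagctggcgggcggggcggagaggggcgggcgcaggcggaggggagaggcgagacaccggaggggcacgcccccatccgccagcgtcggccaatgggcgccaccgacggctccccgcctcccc

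Plk2, chr13:110394794-110395043, plus strand, cyclic AMP response element: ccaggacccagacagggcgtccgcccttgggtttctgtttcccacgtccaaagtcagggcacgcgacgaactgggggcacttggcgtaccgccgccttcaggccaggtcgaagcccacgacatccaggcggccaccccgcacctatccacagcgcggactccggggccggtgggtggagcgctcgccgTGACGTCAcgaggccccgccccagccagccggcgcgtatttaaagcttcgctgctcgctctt

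The p53 response element was in 1 of the 11 member windows and in 0.0731% of the 32851 windows of all genes, and its first base lies 73 bases before the start site. A first search, with no gap allowed between the decamers, found it in no member window, and the gap was allowed after that. No mismatch was allowed in either search. A single decamer was in 5 of the 11 member windows (Ccng1, Cdkn1a, Mdm2, Sesn1 and Trp53) and in 8.36% of all windows. Single decamers were not marked. The bases right after the capitals of Cdkn1a, tgacatgttc, differ from the decamer at their first base only, so an adjoining pair there was not marked. Cdkn1a has another start site 2790 bases downstream, whose window held none. The cyclic AMP element was in the windows of 2 members, 166 bases before the start site of Btg2 and 62 bases before that of Plk2, and in 1.79% of all windows. The AP-1 site was in no member window and in 7.81% of all windows, and the serum response element was in none and in 1.63%. A match is a run of letters in a window, and p53 sites that lie further from the start or within introns fall outside it.

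Cdkn1a lies on chromosome 17 (GRCm38, 29090976 to 29100727, plus strand). p21 binds cyclin-dependent kinases and holds cells in G1. Its level in EC was 594 CPM in CSD library 1 and 734 in CSD library 2, against 228 in HC library 1 and 260 in HC library 2, from 409 to 1471 UMIs. Both CSD libraries lay well above both HC libraries, by 2.72-fold in the means. The same order held in capillary EC, with 574 and 734 against 205 and 252 CPM, in arterial EC, with 543 and 840 against 278 and 349, and in venous EC, with 970 and 853 against 538 and 109. The arterial and venous groups hold 212 and 130 cells, and the venous HC values differ among themselves as much as from CSD.

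In microglia Cdkn1a did not follow the condition. It was 446 CPM in CSD library 1 and 441 in HC library 1, and 258 in CSD library 2 and 224 in HC library 2. The libraries that share a number were close, and the conditions overlapped. In smooth muscle cells it was 192 and 306 CPM in CSD and 140 and 217 in HC, which overlapped too. In choroid plexus cells it was low, at 25.7 and 16.4 CPM in CSD and 12.2 and 13.1 in HC. Free RNA bears on such low values. Barcodes of 100 or fewer UMIs hold little but free RNA. In them Cdkn1a was 59.3 and 55.1 CPM in the CSD and 37.5 and 25.6 in the HC libraries. The choroid plexus values lay below these in every library. Such a level gives the make-up of free RNA, and how much free RNA entered the cells was not estimated. By mean level the order of the classes was EC (454 CPM), microglia (342) and smooth muscle (214), whose libraries overlapped from each to the next, then pericytes (45.6), astrocytes (23.7) and choroid plexus (16.9). The gap between smooth muscle and pericytes, 4.69-fold, was the one place in this order where neighbours did not overlap. It rests on few molecules. Pericytes held 123 and 0 CPM in CSD and 0 and 59.4 in HC, from 9, 0, 0 and 10 UMIs. Astrocytes held 6, 9, 0 and 2 UMIs in the same order of libraries.

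**Figure D1:**
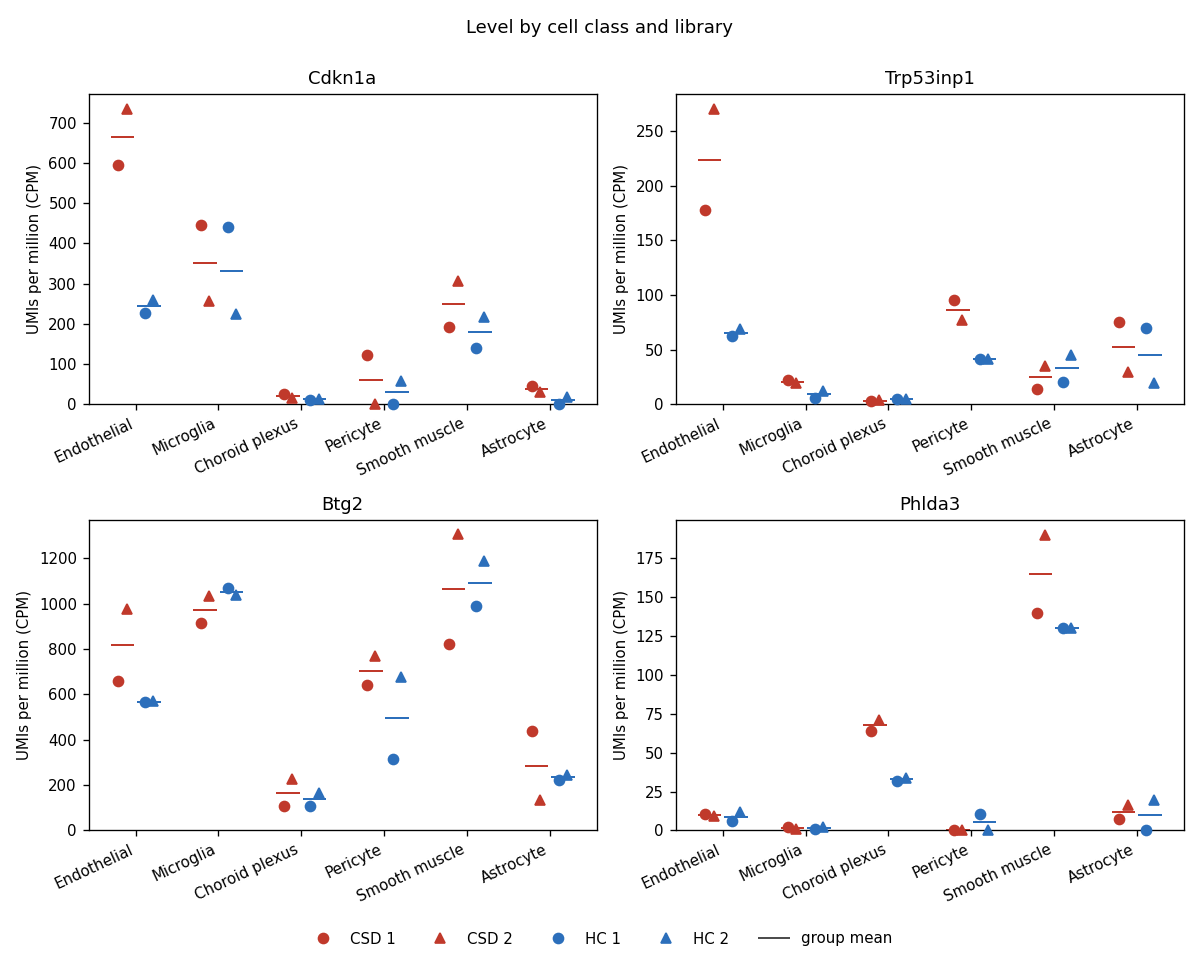
Level of 4 genes in CPM (vertical axis, linear, from 0, each panel on its own scale) in the 6 cell classes. Each point is 1 library (red CSD, blue HC, circle number 1, triangle number 2) and each line the mean of 2 libraries; Cdkn1a and Trp53inp1 separate the conditions in EC, while Phlda3 separates them in choroid plexus cells at a level between those of smooth muscle and EC.

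Trp53inp1 (chromosome 4, 11156431 to 11174379, plus strand) encodes a stress-induced protein that promotes p53 activity and autophagy. In EC it was 178 and 271 CPM in CSD against 62.4 and 68.6 in HC, a 3.42-fold difference in the means with no overlap. The 3 EC subclasses had the same order, with CSD above HC 3.35-fold in capillary, 2.10-fold in arterial and 4.91-fold in venous EC, the last from 2 to 28 UMIs per library. In pericytes it was 95.7 and 76.8 CPM against 41.9 and 41.6, from 4 to 15 UMIs per library. In microglia it was 22.2 and 19.4 against 6.14 and 12.4 CPM. Free RNA held 17.4 and 29.7 CPM in CSD and 10.5 and 13.7 in HC. The microglial values are of the size of these, which were also higher in CSD. In choroid plexus cells Trp53inp1 was lower than in free RNA in all libraries, between 2.86 and 5.39 CPM.

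Among the other growth arrest genes, Btg2, which encodes an antiproliferative protein of the BTG/TOB family, was the most abundant member in all 6 classes. In EC it was 659 and 976 CPM in CSD against 568 and 569 in HC, with no overlap but with CSD library 1 close to HC. In microglia it was 916 and 1033 CPM against 1068 and 1037, so that CSD lay just below HC. Smooth muscle cells held 820 to 1309 CPM with the conditions mixed. Phlda3, which encodes an inhibitor of AKT, had another pattern. It was highest in smooth muscle cells, at 140 and 190 CPM in CSD against 130.01 and 129.8 in HC, and next in choroid plexus cells, at 64.1 and 71.1 against 32.0 and 33.8, a 2.05-fold difference. These were the 2 classes above free RNA in every library. Phlda3 in free RNA was 37.1 and 24.0 CPM in CSD and 26.8 and 25.1 in HC. The HC values of choroid plexus cells were close to those of free RNA. In EC it was 6.13 to 11.6 CPM and in microglia 0.818 to 2.19 CPM, with the conditions mixed in both.

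The polo-like kinases Plk2 and Plk3 act in stress and cell cycle responses. Among the 6 classes Plk2 was highest in EC, with 323 and 327 CPM in CSD against 235 and 245 in HC. Its mean there was 6.06 times that of the next of these classes, with no overlap. Plk3 was 42.0 and 54.4 CPM against 30.7 and 22.1 in EC. In choroid plexus cells Plk3 was 31.9 and 53.3 CPM in CSD against 13.1 and 15.5 in HC, a 2.98-fold difference. Free RNA held 17.6 and 5.71 CPM of Plk3 in CSD and 11.7 and 10.4 in HC. The HC values in choroid plexus cells were near those of free RNA. CSD library 2 had 47 choroid plexus cells, with 39 UMIs of Plk3. In microglia Plk3 was 84.7 and 45.1 against 61.4 and 44.6, which overlapped. Plk2 in microglia was 34.4 and 5.99 CPM in CSD against 25.8 and 7.71 in HC. Library number and not condition ordered it, as for Cdkn1a. In free RNA Plk2 was 27.2 to 38.5 CPM.

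Sesn1, which encodes sestrin 1, an inhibitor of mTORC1 with a role in redox defence, had its highest mean in EC as well, 2.12 times that of pericytes, the next class, whose libraries did not overlap with EC. Astrocytes did overlap, with 105 CPM in HC library 1. It was 121 and 151 CPM in CSD against 82.5 and 90.7 in HC. The order was CSD above HC in microglia also, at 41.3 and 45.1 against 38.9 and 27.4 CPM, a smaller difference. Free RNA had the same order for Sesn1, at 19.8 and 28.0 CPM in CSD against 14.6 and 19.4 in HC. Sesn1 lies over an annotated gene on its own strand, 9930024M15Rik, and Cdkn1a and Plk3 each overlap a gene on the other strand, AC167363.2 and Tctex1d4. How reads were assigned where genes overlap was not checked here.

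Of the p53 loop itself, Mdm2 was 69.8 and 64.4 CPM in CSD against 52.9 and 42.4 in HC in EC, and 84.5 and 82.0 against 59.7 and 49.3 in choroid plexus cells. In microglia it was 112 and 57.4 against 104 and 62.1, again ordered by library number. Free RNA held 41.1 and 27.7 CPM of Mdm2 in CSD and 48.7 and 35.5 in HC. Trp53 did not separate the conditions in EC, where it was 48.8 and 29.5 CPM in CSD and 34.0 and 43.0 in HC, nor in microglia, at 77.5 and 53.9 against 70.4 and 50.6. Its lowest level was in choroid plexus cells, at 5.47 to 9.81 CPM, beside 7.99 to 12.2 in free RNA. Ccng1, which encodes cyclin G1 and is a long-known p53 target, was highest in choroid plexus cells, at 58.8 and 57.4 CPM in CSD against 43.4 and 38.9 in HC. In EC it was 19.85 and 19.97 against 20.6 and 24.4, a small difference in the other direction, at the size of its level in free RNA (19.7 to 31.2 CPM).

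**Figure D2:**
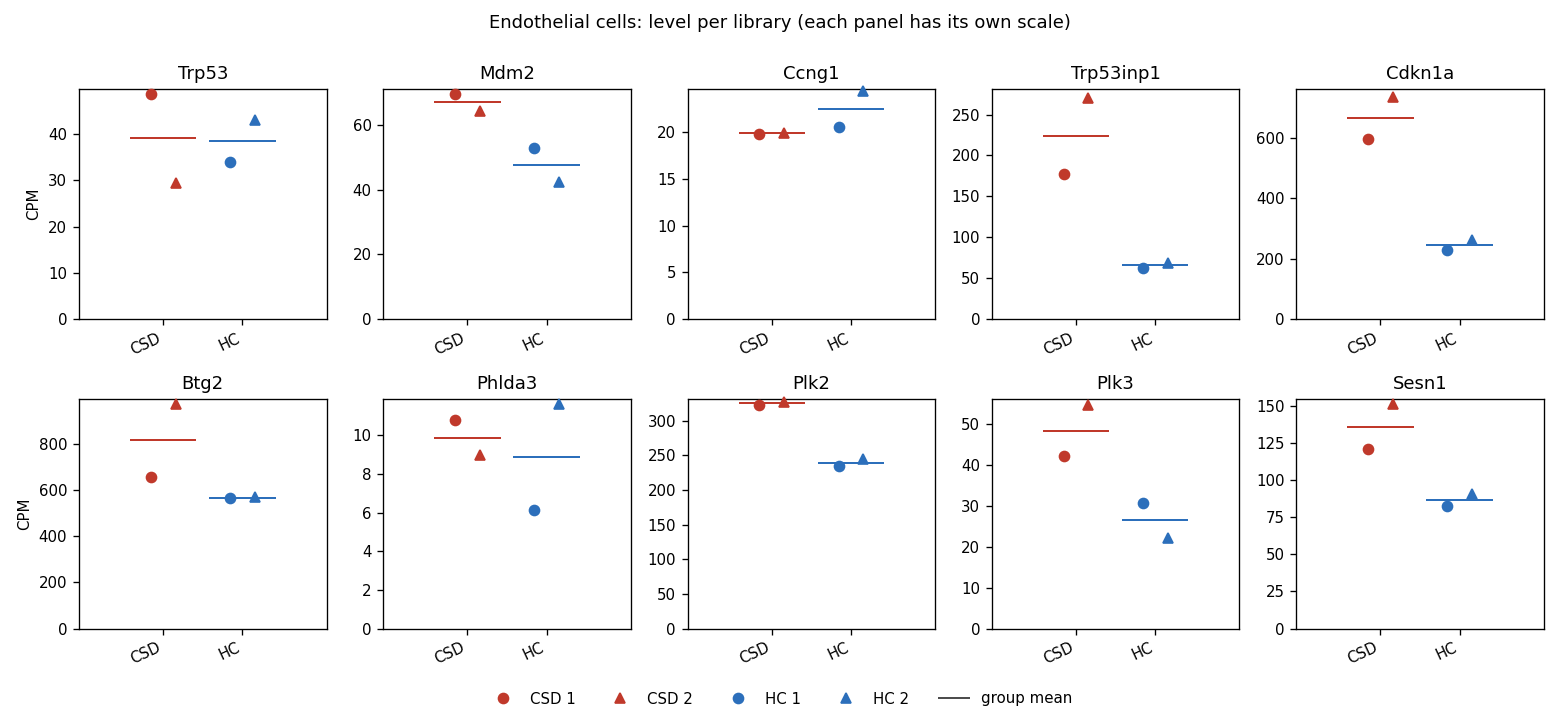
Level of the 10 genes in EC in CPM (vertical axis, linear, from 0, each panel on its own scale), with 1 point per library and a line at the mean of 2 libraries. CSD lies above HC for 7 genes, below for Ccng1, and overlaps for Trp53 and Phlda3.

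Counted over the members, both CSD libraries lay above both HC libraries for 7 of 10 genes in EC (Cdkn1a, Trp53inp1, Btg2, Plk2, Plk3, Sesn1 and Mdm2), where the same held for 13.7% of the 12634 genes of at least 1 CPM, and below for 1, Ccng1, beside 24.1% of all genes. In microglia CSD lay above for 3 members (background 8.12%) and below for 1 (15.3%). In choroid plexus cells it lay above for 6 (background 15%) and below for 1 (13.7%). Since the members were selected on this contrast, nothing is read from these shares. For the same reason the calls of members that follow, and the checks on them, are a description. In the fit across all genes with edgeR's quasi-likelihood test and Benjamini-Hochberg adjustment at 0.05, 10 of 9788 genes tested differed in EC (0.102%), all higher in CSD. Cdkn1a was one, with a log2 difference of 1.498 ± 0.16 (SE, adjusted p = 0.0161), and Trp53inp1 another, at 1.83 ± 0.21 (adjusted p = 0.0177). In choroid plexus cells 10 of 10528 were called (0.095%), with Plk3 at 1.38 ± 0.24 (adjusted p = 0.00168) and Phlda3 at 0.995 ± 0.20 (adjusted p = 0.0107) among them. With DESeq2 neither was called in choroid plexus cells (adjusted p = 0.289 and 0.705). Phlda3 was also lost with edgeR without CSD library 1, HC library 1 or HC library 2 (adjusted p = 0.057, 0.168 and 0.0957), with log2 differences of 0.95 to 1.16, while Plk3 was called without any 1 library. With HC library 1 left out, Cdkn1a and Trp53inp1 were no longer called in EC (log2 differences of 1.44 and 1.79, adjusted p = 0.107 and 0.0637 with edgeR), nor with HC library 2 left out (1.59 and 1.89, adjusted p = 0.313 for both); the size of the differences stayed close. A marker list of other cells moved with the condition in EC. The 10 markers of neutrophils and monocytes summed to 83.4 and 122.8 CPM in CSD against 5.57 and 4.07 in HC. Most of the CSD sums was Lcn2, which EC can express, with 122 and 235 UMIs against 5 and 2. The other 9 markers had 25 and 11 UMIs against 5 and 5. Among them S100a9 had 13 and 7 UMIs in CSD against 0 and 0 in HC, and S100a8 had 4 and 3 against 0 and 0. Csf3r, with 2 and 0 against 2 and 3, and Ly6c2, with 2 and 1 against 3 and 2, did not have this order. Ccr2, Chil3 and Mmp9 were at 0, and the part of such cells in the member levels was not tested.

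In the other classes not all members were deep enough to be fitted. Of the 10, 9 were tested in microglia, 6 in smooth muscle cells, 2 in pericytes and 1 in astrocytes, and none of these was called by edgeR. In pericytes 1 of 2536 genes was called (0.0394%) and in astrocytes 3 of 1800 (0.167%). In microglia edgeR called 0 of 9901 genes (0%), with 129 at an unadjusted p below 0.05 and 1 called by DESeq2, and in smooth muscle cells 0 of 4360 (0%), with 111 at an unadjusted p below 0.05 and 0 by DESeq2.

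Genes of the same pathway that are not members were taken as lists. Of 35 further p53 targets, among them Bax, Bbc3 and Fas, 25 were tested in EC and 0 passed in either direction, with a median log2 difference of 0.16 beside -0.01 over all genes. Of 20 regulators of p53, 19 were tested and 0 passed (median 0.00). Of 27 CDK inhibitors and genes of the G1/S step, 17 were tested and 0 passed (median 0.00), and of 12 relatives of the members, such as Btg1 and Phlda1, 7 were tested and 0 passed (median 0.19). DESeq2 called 0 genes of the 4 lists in EC too. The same lists had 0 genes called in microglia and in choroid plexus cells, where 26 and 23 of the further p53 targets were tested with medians of -0.10 and 0.01. Over all genes the share called was 0.102% in EC, 0% in microglia and 0.095% in choroid plexus cells. At such shares, 0 calls in lists of this size do not show that the lists are unchanged.

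The second comparison splits cells by genes that are not members and without use of the condition. The members were still chosen with earlier results of these data known. Btg2, Plk2 and Plk3 are themselves known as early response genes, so that a rise of these in the high cells could be foreseen. Immediate-early genes encode transcription factors and their regulators that respond within minutes, and tissue digestion and cell handling can switch them on. Cells of 1 class differ in the level of these genes. Whether handling or an earlier signal set that level here was not tested. Cells were split by the share of their UMIs in 10 such genes (Fos, Fosb, Jun, Junb, Egr1, Ier2, Atf3, Nr4a1, Dusp1 and Zfp36) at 1%. By this cut 1606 of 4705 EC (34.1%) and 3757 of 4479 microglia (83.9%) were immediate-early-high, and 7.91% of EC and 7.66% of microglia lay between 0.8% and 1.2%. High and low cells were compared within the 4 libraries, with the 10 genes left out of the totals.

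In EC 4 members were far higher in the high cells of every library. Btg2 was 983, 1408, 1039 and 1031 CPM in the high cells of CSD libraries 1 and 2 and HC libraries 1 and 2, and 341, 496, 272 and 292 in the low cells, so that the ranges did not overlap. Its log2 difference was 1.75 ± 0.07 (adjusted p = 6.00e-18). Plk3 rose by 1.78 ± 0.20 (adjusted p = 7.43e-08) and Plk2 by 1.34 ± 0.08 (adjusted p = 1.28e-13), each higher in 4 of 4 libraries with ranges that did not overlap. Cdkn1a was 757, 982, 368 and 463 CPM in the high and 442, 465, 141 and 138 in the low cells, a log2 difference of 1.25 ± 0.10 (adjusted p = 1.67e-11), higher in 4 of 4 libraries. Here the low cells of CSD reached the level of the high cells of HC. Mdm2 was higher too, by 0.53 ± 0.15 (adjusted p = 0.0240), and fell short of the threshold in 5 of the 11 alternatives. Markers of other cells moved with the split: the 10 pericyte markers summed to 516, 380, 588 and 927 CPM in the high and 461, 297, 273 and 409 in the low cells, in the same order of libraries, and the 12 endothelial markers to 19692 to 24894 against 23289 to 28271, lower in the high cells of each library. The lists of microglia, smooth muscle, choroid plexus and astrocytes went the other way from pericytes and were lower in the high cells of each library. The microglial list was 120, 73.6, 89.4 and 153 CPM in the high and 181, 109, 111 and 231 in the low cells. The part of these markers in the member differences was not tested. The background was 5.55% of 8777 genes called higher and 2.6% called lower.

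The other 5 members did not pass. Trp53inp1 was lower in the high cells of all 4 libraries, at 151, 270, 54.4 and 53.6 CPM against 210, 281, 68.8 and 79.1, by a small amount (-0.24 ± 0.11, adjusted p = 0.217). Sesn1 differed by -0.08 ± 0.12 (adjusted p = 0.759), Trp53 by 0.42 ± 0.19 (adjusted p = 0.205), Ccng1 by -0.46 ± 0.25 (adjusted p = 0.294) and Phlda3 by -0.16 ± 0.38 (adjusted p = 0.874). Of the 2 members called in EC between CSD and HC, Cdkn1a was therefore higher in high cells, and Trp53inp1 was not called.

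**Figure D3:**
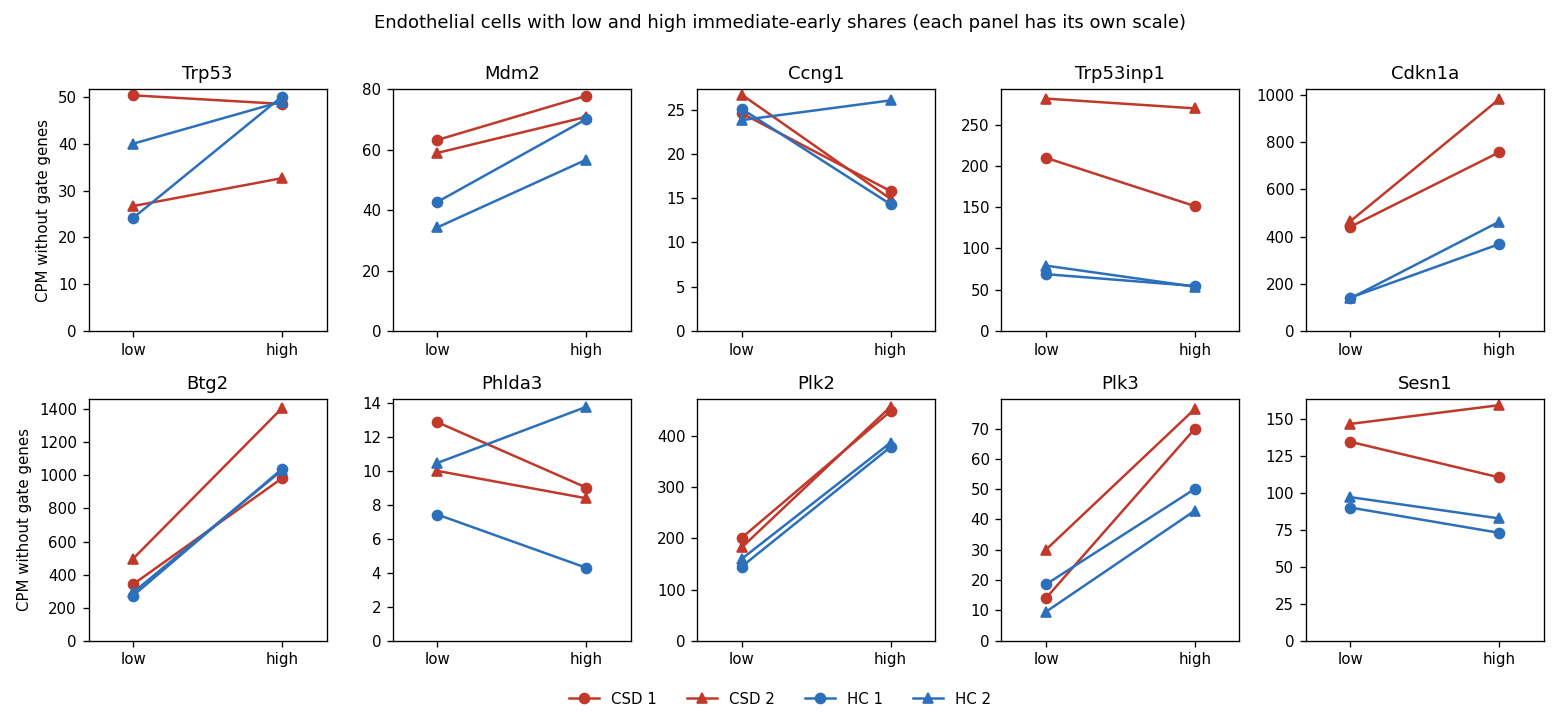
Level of the 10 genes in EC with low (under 1%) and high immediate-early shares, in CPM without the 10 gate genes (vertical axis, linear, from 0, each panel on its own scale); a line joins the low and high cells of 1 library. Btg2, Plk2, Plk3 and Cdkn1a climb in every library, while Trp53inp1 is lower in the high cells of each library and Sesn1 in 3 of 4, with CSD (red) above HC (blue) in both states.

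In microglia the background was 5.45% of 8928 genes called higher and 5.2% lower. Btg2 rose by 1.31 ± 0.13 (adjusted p = 3.87e-13), Plk3 by 1.14 ± 0.27 (adjusted p = 0.00178), Cdkn1a by 0.88 ± 0.16 (adjusted p = 3.04e-05) and Mdm2 by 0.63 ± 0.21 (adjusted p = 0.0409), each higher in 4 of 4 libraries. Mdm2 passed in 3 of the 11 alternatives only, with adjusted p up to 0.337, and no longer passed when any 1 library was left out (0.0819 to 0.308). Cdkn1a was 472, 274, 490 and 238 CPM in the high cells and 314, 154, 81.0 and 157 in the low cells. With the split at 2% its difference was -0.01 (adjusted p = 0.962), so the call in microglia depends on where the cells are split. It was not called with DESeq2 either (0.93, adjusted p = 0.140). Plk3 was not called with the split at 2% (0.31, adjusted p = 0.102), nor without CSD library 1 (0.98, adjusted p = 0.0667 with edgeR). Plk2, which rose in EC, differed by 0.38 ± 0.41 in microglia, where it was low (adjusted p = 0.674). Whether the 2 classes differ was not tested. High and low cells also differed in depth: median UMIs were 1140 to 2114 in high and 790 to 1368 in low EC, and 1868 to 5528 against 832 to 1231 in microglia. The low cells held more mitochondrial UMIs in every library, with medians of 6.37% to 9.36% against 5.35% to 7.63% in EC and 4.96% to 9.97% against 3.24% to 4.65% in microglia. The part of depth and RNA quality in these differences was not tested beyond the limit of 1000 UMIs, under which Btg2 and Cdkn1a were called higher in both classes and Mdm2 in neither (0.37, adjusted p = 0.236 in EC and 0.47, adjusted p = 0.282 in microglia).

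Of the list genes, 8 of the 61 tested in EC were higher (13.1%, beside 5.55% of all genes) and 3 were lower (4.92%, beside 2.6%). In microglia 7 of 65 were higher (10.8%, beside 5.45%) and 4 were lower (6.15%, beside 5.2%). In EC 1 of 21 further p53 targets tested was higher, Gpx1 (log2 difference 1.13 ± 0.09), a glutathione peroxidase, and 2 were lower, Apaf1 (-1.49 ± 0.32), a part of the apoptosome, and Polk (-0.35 ± 0.09), a DNA polymerase. Among the relatives 3 of 7 were higher, Phlda1 (2.69 ± 0.29), Btg1 (1.18 ± 0.10) and Trp53inp2 (0.64 ± 0.20). Of the CDK and G1/S list 2 of 16 were higher, Pcna (0.96 ± 0.20), the sliding clamp of DNA replication, and Cdkn1c (0.43 ± 0.11), which encodes the inhibitor p57. Of the p53 regulators 2 of 19 were higher, the ribosomal protein genes Rpl23 (0.37 ± 0.05) and Rpl5 (0.33 ± 0.06), and 1 lower, the damage kinase gene Atr (-0.88 ± 0.25). In microglia Pmaip1 (1.23 ± 0.34) and Bbc3 (0.84 ± 0.24), which encode the proapoptotic proteins NOXA and PUMA, were higher and Dcxr (-1.03 ± 0.21) was lower among 23 targets tested. There Phlda1 (1.44 ± 0.32) and Btg1 (0.61 ± 0.13) were higher among 7 relatives, 0 of 19 CDK and G1/S genes passed, and of 19 regulators 3 were higher, Daxx (1.65 ± 0.57), Usp7 (0.72 ± 0.23) and Crebbp (0.62 ± 0.19), and 3 lower, Rpl11 (-0.72 ± 0.13), Rpl23 (-0.69 ± 0.13) and Rpl5 (-0.64 ± 0.13). The ribosomal genes Rpl23 and Rpl5 had opposite signs in EC and microglia.

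Since Cdkn1a was higher both in CSD and in immediate-early-high EC, CSD and HC were set side by side within each state, a step chosen after the data had been seen. The summed level of the 10 gate genes was 13299 and 16122 CPM in the CSD and 10873 and 11081 in the HC libraries of EC, so more of this signal was in CSD. In low EC Cdkn1a was 442 and 465 CPM in CSD against 141 and 138 in HC, 3.24-fold, and Trp53inp1 was 210 and 281 against 68.8 and 79.1, 3.32-fold. In high EC the folds were 2.09 for Cdkn1a and 3.90 for Trp53inp1. The edgeR values were 1.73 ± 0.17 for Cdkn1a and 1.76 ± 0.20 for Trp53inp1 in low EC, and 1.10 ± 0.20 and 1.999 ± 0.29 in high EC. Both were called in low EC (adjusted p = 0.00104 and 0.00328) and neither in high EC (adjusted p = 0.178 and 0.0844). The 2 genes were selected on CSD against HC in these libraries, so these p-values are a description and lend no support. Sesn1, which was not called, was 0.62 ± 0.18 in low and 0.84 ± 0.23 in high EC (adjusted p = 0.317 and 0.417). Btg2 was 0.60 ± 0.19 and 0.24 ± 0.20 and was not called either (adjusted p = 0.407 and 0.861). The differences between states in these CSD values were not tested.

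**Figure D4:**
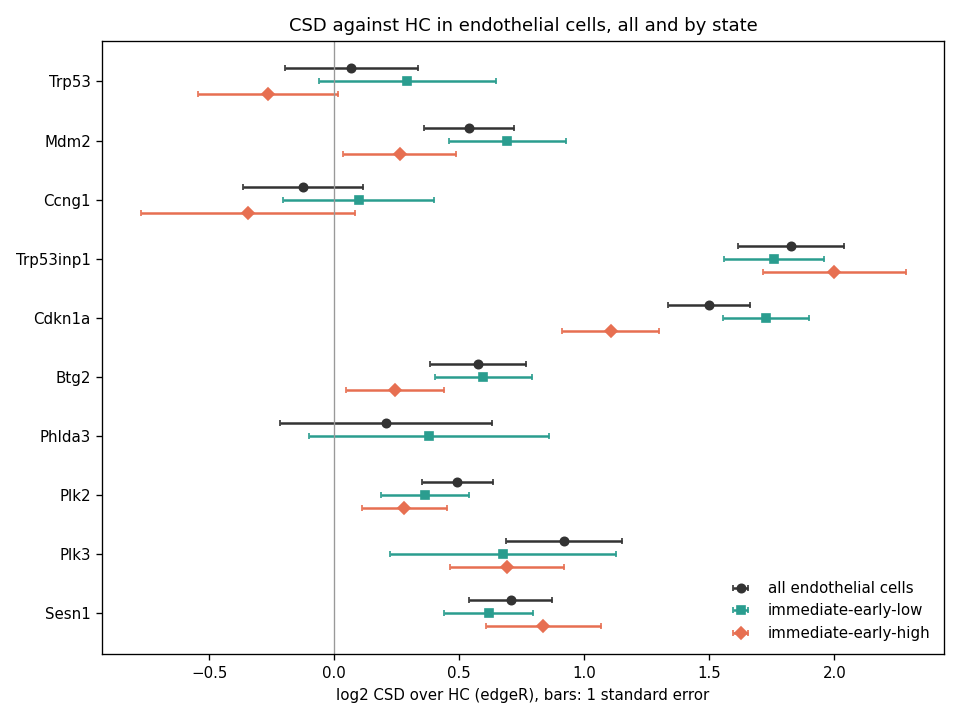
Log2 difference of CSD over HC in EC (horizontal axis, edgeR, bars 1 standard error, 2 libraries per condition) for each gene in all EC, in immediate-early-low and in immediate-early-high EC. Trp53inp1 and Cdkn1a lie furthest to the right in each set of cells; Phlda3 was too low to be fitted in high EC.

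By likeness of pattern, measured as Pearson's r of log2(CPM + 10) with Cdkn1a over 24 points (6 classes in 4 libraries, which share libraries and depth), the nearest of 6710 genes of at least 20 CPM were Actg1 (0.893), Anxa3 (0.892), Sh3glb1 (0.889), Rps14 (0.889) and Sertad1 (0.885). With a pseudocount of 1 CPM only 1 of these 5 was still among the nearest 5. Leaving out CSD library 1 or CSD library 2 kept 2 of them each time, leaving out HC library 1 kept 3, and leaving out HC library 2 kept 5. Among the members Btg2 was nearest (r = 0.725, rank 166), and Trp53inp1 was at 0.267.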

How the data were processed

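Cells of 2 CSD and 2 HC libraries were made with the 10x Chromium Single Cell 3' kit (v3.1). The authors deposited UMI counts per gene and barcode for all barcodes, without cell calling or normalization; the submitters' processing notes name Cell Ranger 4.0 and GRCm38 (mm10), and the header of the matrices names 3.1.0. The limits on UMIs, genes and mitochondrial UMIs followed the study's methods. A cell was placed in a class with at least 3 of its markers and a share of markers at least 2 times that of the next class (an EC subclass: 2 markers and the highest share). This rule was set once the files had been read and class sizes were known; 1945 cells too close to a second class and 397 with too few markers were left out, and no doublet caller was run. Counts were summed per library and class and compared, two-sided, with edgeR 4.0.16 (filterByExpr, TMM, quasi-likelihood test) in R 4.3.3, with Benjamini-Hochberg adjustment over all genes tested at 0.05; immediate-early states were compared with the library as a block. DESeq2 1.42.0 was an alternative. Scripts were tested on simulated data. Nothing states that the pools are independent cohorts, so p-values measure the spread between libraries only. The members and lists were chosen with earlier results of these data known. Genes named are the members, up to 5 called genes per list and direction, the 5 genes most like Cdkn1a and markers. Lcn2, S100a8, S100a9, Csf3r, Ly6c2 and the genes at 0 were named as markers. The floor of 1 CPM for counts of genes whose groups do not overlap was set after a floor of 20 CPM had been run, so that members at low levels are counted too.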

Additional observations from a re-analysis of the deposited data

Results flagged for a closer look

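In 8 pairs of classes both CSD libraries lay above both HC libraries in one class and below them in the other. None of these differences was tested, and the genes were selected on this contrast. For Trp53inp1 the log2 ratio of CSD over HC was 1.77 in EC, 1.16 in microglia and 1.05 in pericytes and -0.55 in choroid plexus cells, a gap of 2.32, 1.71 and 1.60; the choroid plexus level rests on 3 to 37 UMIs per library and is below that of free RNA. For Ccng1 the ratio was 0.23 in microglia and 0.50 in choroid plexus cells against -0.18 in EC, a gap of 0.40 and 0.67. For Btg2 it was 0.52 in EC against -0.11 in microglia, a gap of 0.64. For Trp53 it was 0.66 in smooth muscle cells against -0.72 in pericytes and -1.05 in astrocytes, a gap of 1.38 and 1.71, from 3 to 20 UMIs per library.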

How the results depend on the processing

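In EC the log2 difference of Cdkn1a between CSD and HC stayed between 1.10 and 1.73 and that of Trp53inp1 between 1.51 and 2.09 over 14 alternatives, and each was called in 11. Both genes were selected on this contrast, so these calls are a description. The number of genes called moved far more than these differences. In EC, with 10 genes called, DESeq2 called 57, no filter on low counts 32, and leaving out 1 library 1 to 574 (574 without CSD library 1, 259 without CSD library 2, 5 without HC library 1 and 1 without HC library 2); low and high cells alone, chosen after seeing the data, gave 23 and 1. In microglia, with 0 called, these were 1 with DESeq2, 13 without the filter and 0 to 24 without 1 library. In choroid plexus cells, with 10, they were 1, 16 and 7 to 23. In pericytes, with 1, they were 0, 4 and 0 to 17, and 2 at 10% mitochondrial UMIs. In smooth muscle cells, with 0, no filter gave 5 and leaving out 1 library 2 to 19. In astrocytes, with 3, they were 0, 11 and 0 to 12, with 1 at 1000 UMIs and 0 at 10% mitochondrial UMIs. The latter limit left too few cells in choroid plexus and smooth muscle. List genes called without 1 library were 0 to 6 in EC and 0 to 2 in microglia. The cause was not tested.

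With the replicate number as a block, EC had 79 genes called and 1 list gene, and microglia 2. The numbers are not shown to pair the libraries: deviations of same-numbered libraries correlated at 0.095 in EC and 0.379 in microglia. Cdkn1a and Trp53inp1 were called in EC with the block too.

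Between immediate-early states, 715 genes were called in EC and 951 in microglia. DESeq2 gave 274 and 558, and leaving out the library block 156 and 55. In microglia 1000 UMIs gave 431, a split at 0.5% gave 1439, and leaving out 1 library 502 to 923. List genes called, 11 in each class, were 5 in each with DESeq2 and 7 in each at 1000 UMIs, and 7 to 11 in EC and 7 to 10 in microglia without 1 library. Btg2 was called in all 11 alternatives in both classes. Differences changed sign for Ccng1 in EC (0.0792 at 2%) and microglia (0.37 at 0.5%), and in microglia for Cdkn1a (-0.00835 at 2%) and Plk2 (-0.00901 at 1000 UMIs). Without the library block Cdkn1a was not called in EC (1.196, adjusted p = 0.186). The r of Actg1 with Cdkn1a was 0.812 with a pseudocount of 1 CPM and 0.869 to 0.939 without 1 library. At a floor of 20 CPM, 16.7% of genes had CSD above HC in EC.

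With 2 libraries per condition, small differences of low genes such as Phlda3 in EC (11 to 20 UMIs per library) were not detectable at this depth.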
